A study of Mus musculus with 4 samples.

Results

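The genes described here are 50 interferon-stimulated effector genes, measured in CD4+CD8+ double-positive thymocytes with and without the splicing factor SRSF1. They were chosen by symbol from the table of 53715 genes. A list of 42 symbols was found in full, and 8 further genes carried a symbol of the Ifi200 series. Counts were high enough for a test in 46 of the 50 genes, as in 16588 of all genes. RNA sequencing was carried out on double-positive cells sorted from the thymus of C57BL/6 mice at 6 to 8 weeks of age, with 2 libraries per genotype. The wild-type (WT) mice are labelled only as such, so whether they carried Cre or a floxed allele is not known from the labels. The knockout (KO) mice were LCKCre/+ Srsf1fl/fl, that is, both copies of Srsf1 were floxed and Cre was driven by Lck, a gene switched on in early thymocytes. No interferon treatment is named for either group.

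Interferons bind receptors on the cell surface and activate the kinases JAK1, JAK2 and TYK2, which phosphorylate STAT proteins. Complexes that hold STAT2 and IRF9 bind the interferon-stimulated response element in gene promoters, and other STAT dimers bind the gamma-activated site. The genes switched on in this way sense foreign nucleic acid, block viral translation and assembly, tag proteins with ISG15, or damage the membranes around intracellular pathogens. Many have a basal level in cells that have not met a virus. In the thymus a steady low supply of interferon is known to act on thymocytes, mainly at the mature single-positive stage that follows the double-positive stage.

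Each library held 35862730 to 37033180 counts, and levels below are CPM, the count scaled by library size and TMM factor, where 1 count was worth 0.0269 to 0.028 CPM. Differences are log2 fold changes of KO against WT with the standard error (SE), from edgeR's quasi-likelihood test across all tested genes, with Benjamini-Hochberg adjusted p-values and a call at an adjusted p under 0.05. The targeted gene Srsf1 had 134.9 and 122 CPM in the WT libraries against 49.4 and 49.1 CPM in the KO libraries, a change of -1.39 on the log2 scale (SE 0.09, adjusted p = 2.91e-06). All 10 double-positive markers on the list had counts in every library, and 6 of them were higher in KO. The labels do not state whether the 2 libraries of a group are from different mice, and the spread behind each p-value may therefore be technical. In sorted bulk cells, fewer cells of a type and less RNA per cell cannot be told apart.

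Of the 46 tested effector genes, 5 were higher in KO, namely Ly6e, Stat2, Ifi209, Ifi203 and Mndal, and 1 was lower, Parp14. The remaining 40 were not called. Among all tested genes 6.63% were called higher and 7.89% lower, beside 10.9% and 2.17% of the effector genes. With so few calls these shares are given as a description. Both KO libraries lay above both WT libraries for 13 effector genes and below them for 8, and the groups overlapped for 25. The corresponding shares over all tested genes were 28.0% above and 28.0% below, against 28.3% and 17.4% of the effector genes. The median log2 fold change was 0.13 over the effector genes and 0.00222 over all tested genes. The median SE of the effector genes was 0.24.

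**Figure D1:**
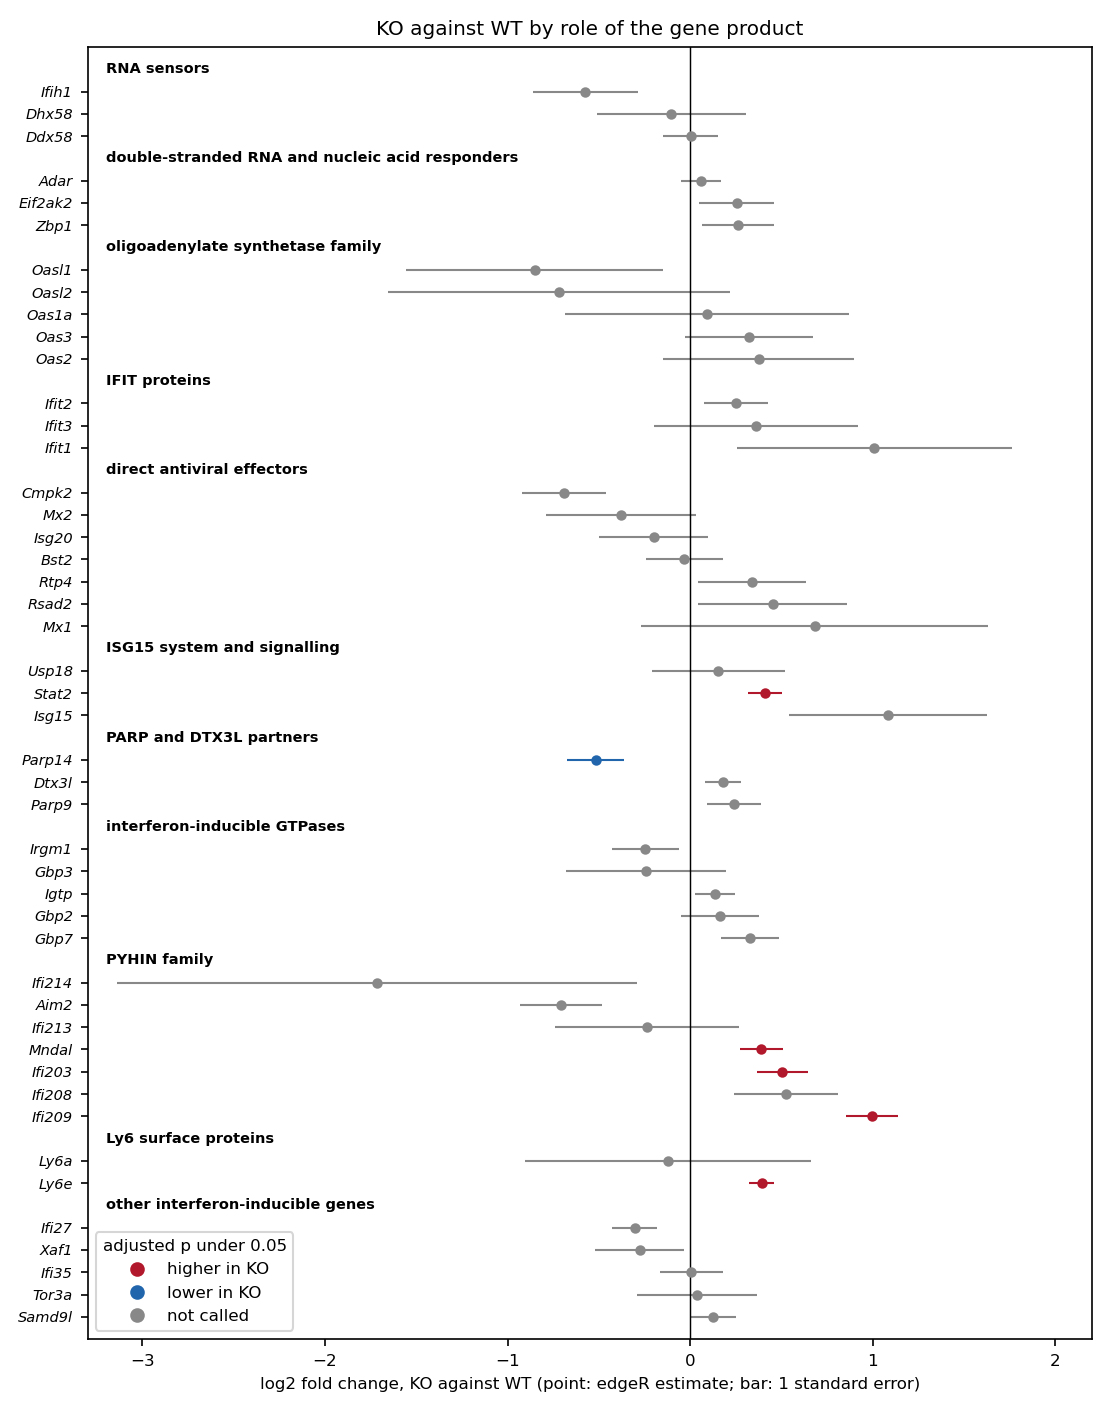
Log2 fold change of KO against WT for the 46 tested effector genes, grouped by the role of the gene product. Points are edgeR estimates and bars are 1 standard error. The 5 genes called higher (red) sit between 0.39 and 0.99, Parp14 (blue) sits at -0.52, and most other bars cross or come near 0.

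The level of these genes in double-positive cells spanned several orders of magnitude. On the deposited RPKM scale, which divides by gene length and so allows genes to be compared, Ly6e stood at a mean of 243 RPKM over the 4 libraries. The next in order were Ifi27 with 36.9 RPKM, Bst2 with 29.5 RPKM and Igtp with 27.6 RPKM, all far below Ly6e. In total 10 genes had a mean of at least 10 RPKM, 22 lay between 1 and 10 RPKM, and 18 lay below 1 RPKM. The median of the tested effector genes was 3.49 RPKM, and the median of all tested genes was 3.51 RPKM. Among the tested genes of low level were Ifit1 at 0.499 RPKM, Mx1 at 0.216 RPKM and Oasl2 at 0.157 RPKM, whereas Ifit2 stood at 6.62 RPKM and Isg15 at 4.22 RPKM. All 6 calls were for genes with a mean of at least 1 RPKM, where the median SE was 0.18. Below 1 RPKM the median SE was 0.61, and 0 of 14 tested genes were called by edgeR, with 0 at an unadjusted p under 0.05. A difference of the size seen in Ly6e or Stat2 was thus not detectable in the low genes at this depth.

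**Figure D2:**
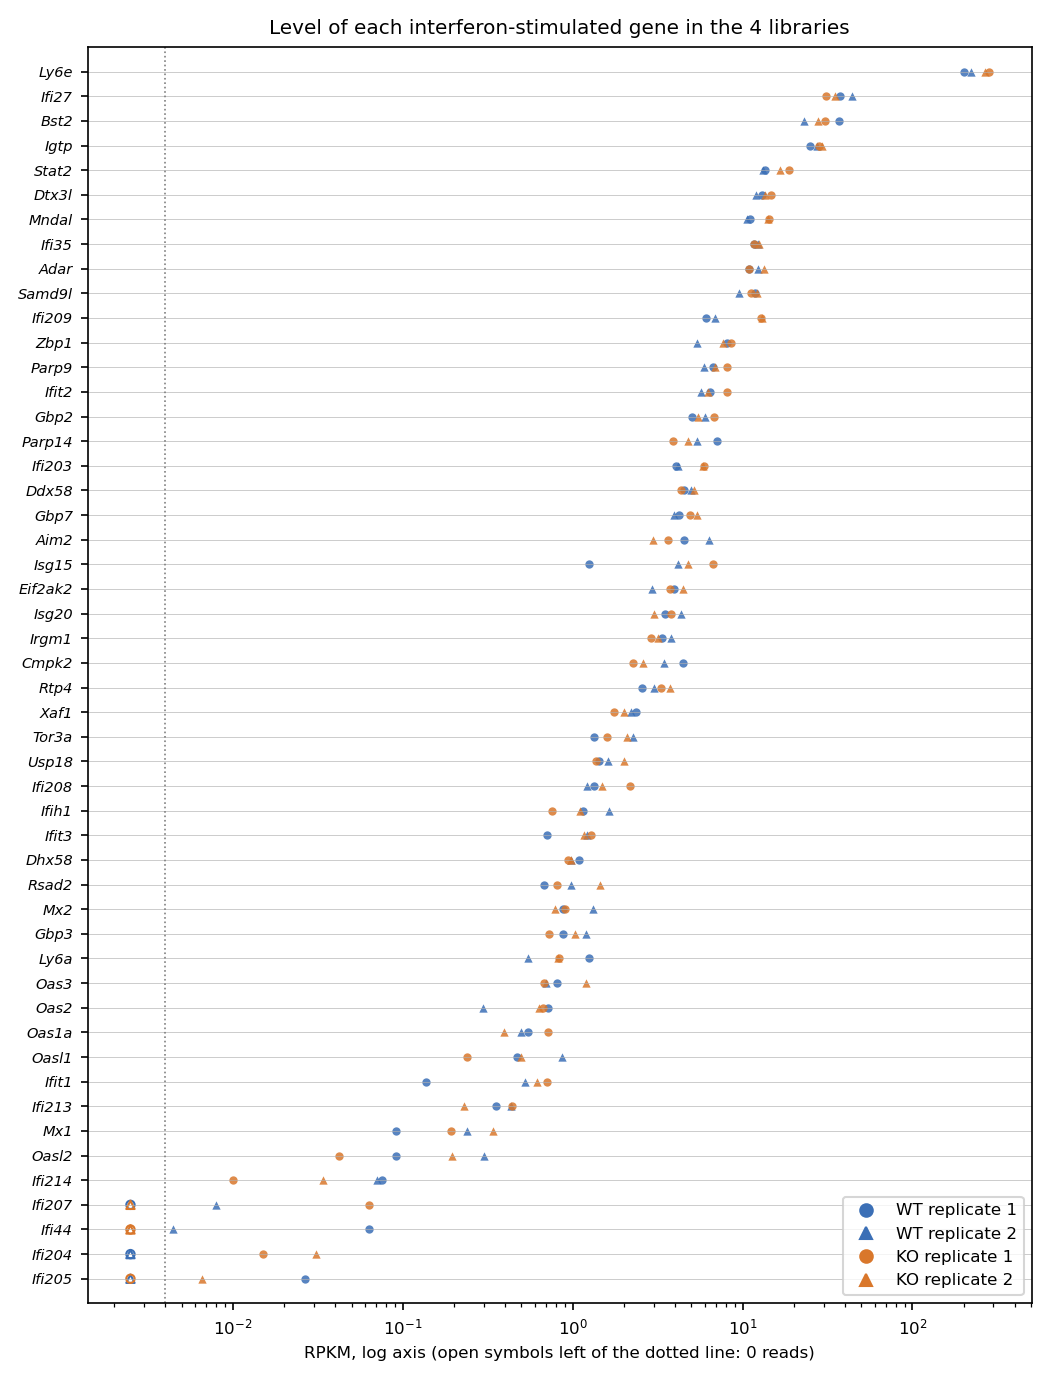
RPKM in each of the 4 libraries for the 50 effector genes, ordered by mean level on a log axis. Colour marks the genotype, shape marks the replicate, and open symbols left of the dotted line mark 0 reads. Ly6e stands apart at the top, and the 4 genes with too few counts to test stand at the bottom.

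Ly6e, which encodes a GPI-anchored surface protein of the Ly6 family with roles in thymocyte maturation and virus entry, dominated the set. It had 759 and 830.5 CPM in WT and 1063 and 1021 CPM in KO. Both KO libraries were higher than both WT libraries, by more than either replicate gap. Its mean rose from 795 ± 50.4 to 1042 ± 29.7 CPM (SD, n = 2 each), which is 0.39 on the log2 scale (SE 0.07, edgeR adjusted p = 0.00216). It lies on chromosome 15 at 74955051 to 74959905 on the plus strand (GRCm38), overlaps no other annotated exon, and shares no 50-base stretch with transcripts of another gene. Ly6e alone made up 44.8% to 51.9% of the summed CPM of all 50 genes. That sum was 1696 and 1743 CPM in WT against 2047 and 2043 CPM in KO. Without Ly6e it was 936 and 913 CPM against 984 and 1022 CPM, so the greater part of the higher sum in KO was Ly6e. Its relative Ly6a (Sca-1), a stem and memory cell marker 35 kb away, had only 24 to 54 counts and was not called (log2 fold change -0.12).

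Stat2, a transcription factor of the response to type I interferon, rose as well. It had 80.7 and 77.7 CPM in WT and 110.7 and 99.8 CPM in KO, with no overlap between the groups. From 79.2 ± 2.16 to 105 ± 7.71 CPM (SD, n = 2 each), the change was 0.41 on the log2 scale (SE 0.09, edgeR adjusted p = 0.0111). The gene is on chromosome 10 at 128270559 to 128292849, plus strand, and overlaps no other annotated exon. The calls for Ly6e, Stat2 and Ifi209 held when each library was left out in turn, while on log2 of RPKM plus 0.5 the limma test of Stat2 gave 0.39 with an adjusted p of 0.0645. Isg15, the ubiquitin-like protein that is attached to other proteins after interferon, had 0.952 and 3.14 CPM in WT and 5.05 and 3.63 CPM in KO. Both KO libraries were higher, but the WT libraries differed from each other by 1.71 on the log2 scale, more than the groups did. Its log2 fold change of 1.08 (SE 0.54) was not called (adjusted p = 0.224), and it was 2.19 (adjusted p = 0.012) without WT replicate 2 but 0.47 (adjusted p = 0.669) without WT replicate 1. Usp18, which removes ISG15 and restrains the type I receptor, had 142 to 205 counts and a log2 fold change of 0.15, not called.

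The PYHIN family holds nuclear and cytosolic DNA-binding proteins, and 10 of the effector genes belong to it. They lie in a cluster that spans 680.9 kb on chromosome 1, in the order Aim2, Ifi214, Ifi213, Ifi209, Ifi208, Ifi207, Ifi204, Mndal, Ifi203 and Ifi205. The span also holds Ifi206 (1.52 to 2.06 RPKM), Ifi211 and Ifi202b, whose deposited symbols were outside the choice. Their change in KO is not given here. Of the 10 chosen genes, 7 were tested and 3 were higher in KO, beside 6.63% of all tested genes. With so few genes this is a description. Ifi209 had 21.7 and 24.5 CPM in WT and 45.6 and 46.4 CPM in KO. Its KO level was thus 1.99 times the WT level, the largest change among the called effector genes (0.99 on the log2 scale, SE 0.14, adjusted p = 0.000628). Ifi203 had 27.5 and 28.1 CPM in WT against 39.4 and 39.5 CPM in KO, a difference of 0.50 on the log2 scale (SE 0.14, adjusted p = 0.0274). Mndal had 40.1 and 38.5 CPM in WT against 51.4 and 51.5 CPM in KO, a difference of 0.39 on the log2 scale (SE 0.12, adjusted p = 0.0461). The replicates of Ifi203 and Mndal were close to each other in both groups and the groups did not overlap. Both calls were nevertheless near the threshold. Without 1 library, the adjusted p lay between 0.0502 and 0.0991 for Ifi203 and between 0.083 and 0.17 for Mndal, so neither call held when any 1 of the 4 libraries was left out.

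**Figure D3:**
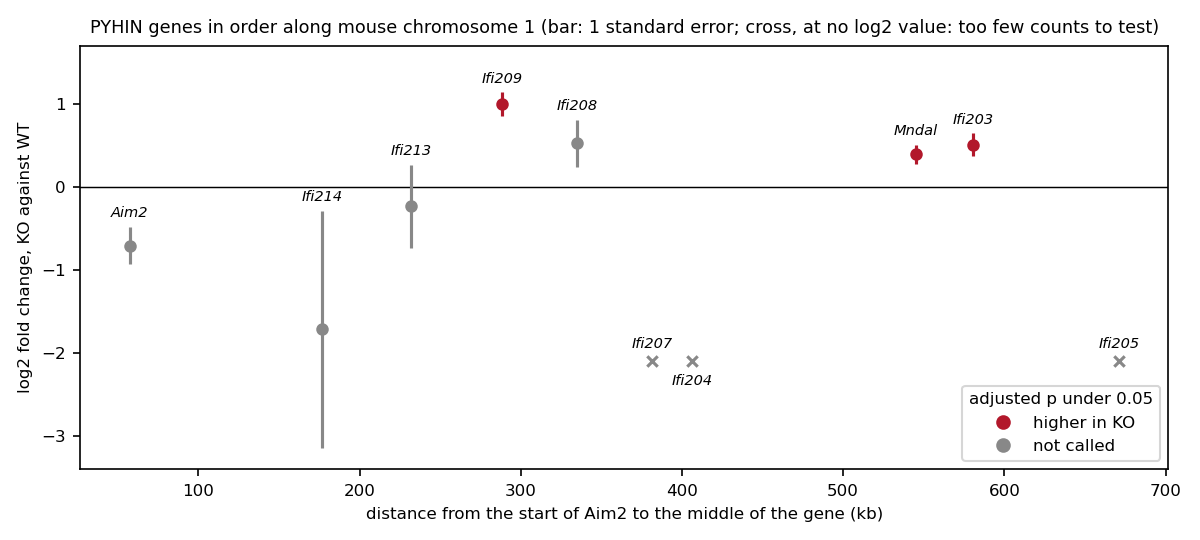
Log2 fold change of KO against WT (vertical axis) for the PYHIN genes among the effector genes, by their distance in kb along mouse chromosome 1 (horizontal axis). Bars are 1 standard error, and crosses stand for genes with too few counts to test and are placed at no log2 value. Ifi209, Ifi203 and Mndal (red) are above 0, while Aim2 at the start of the cluster is below 0.

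The direction was not shared across the chosen genes of the cluster. Aim2, the cytosolic DNA sensor that assembles an inflammasome, had 15.8 and 22.1 CPM in WT and 12.7 and 10.5 CPM in KO. Both KO libraries were lower, with a log2 fold change of -0.71 (SE 0.23) and an adjusted p of 0.0555 that missed the threshold. Without WT replicate 1 or KO replicate 1 it passed, at -0.93 (adjusted p = 0.00889) and -0.84 (adjusted p = 0.0402), and it did not without WT replicate 2, at -0.44 (adjusted p = 0.394), or KO replicate 2, at -0.57 (adjusted p = 0.163). Ifi208 had 7.05 and 6.36 CPM in WT and 11.4 and 7.90 CPM in KO, with the KO libraries above but far apart (0.52 on the log2 scale, SE 0.28, adjusted p = 0.264). Its value ran from 0.24 without KO replicate 1 to 0.77 without KO replicate 2. Ifi214 was barely present, with 22 and 21 counts in WT and 3 and 10 counts in KO, and its estimate of -1.72 had an SE of 1.42 (adjusted p = 0.505). Ifi213 had 57 to 112 counts and a log2 fold change of -0.24, not called. Ifi204 had 0 counts in both WT libraries and 2 and 4 in KO, Ifi205 had 0 to 4 counts in any library, and Ifi207 had 0 to 8. These 3 genes were too low to test.

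PYHIN genes are recent duplicates of each other, so reads can be hard to assign. Of the 50-base stretches in Ifi209 transcripts, 33.8% also occur in another gene, nearly all of them in Ifi214. The share was 19.6% for Mndal, 12.4% for Ifi203 and 20.9% for Ifi208, but 0.74% for Aim2. Mndal and Ifi203 also overlap on the minus strand, where 0.55% of the exon bases of Ifi203 are shared with Mndal. Mndal overlaps both Ifi203 and Gm38050, and the larger of these overlaps takes 3.25% of its exon bases. How reads that fit more than 1 place were counted is not given in the sources used here. Ifi214 had at most 22 counts in any library, beside 775 to 1699 for Ifi209.

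The promoters of the PYHIN genes carry the same duplication, and those of the called members are shown for that reason. Each stretch is from RefSeq promoter windows of GRCm38.p6, written 5′ to 3′ on the strand of the gene, and capitals mark a match to GAAANNGAA, the core of the interferon-stimulated response element, searched on both strands. Ifi203 is chr1:173942493-173942553, minus strand. Mndal is chr1:173880189-173880249, minus strand. Ifi209 is chr1:173630754-173630814, plus strand. Ifi214, added for comparison after its values were seen, is chr1:173536002-173536062, minus strand.
Ifi203: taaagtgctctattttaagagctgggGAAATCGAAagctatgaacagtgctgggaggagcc
Mndal: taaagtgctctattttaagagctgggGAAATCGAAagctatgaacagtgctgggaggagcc
Ifi209: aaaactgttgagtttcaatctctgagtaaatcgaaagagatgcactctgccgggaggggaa
Ifi214: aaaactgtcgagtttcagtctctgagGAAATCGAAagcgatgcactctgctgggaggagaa
Ifi203 and Mndal are identical over these 61 bases, and so are the matching stretches of Ifi208 and Ifi213. Mndal has 2 promoter windows, and the identity covers only the stretch shown. Its other window held a different match, within chr1:173879977-173880037, which is not shown. Ifi209 is identical to Ifi214 at 55 of 61 bases and carries the substitution G1T in the motif, counted from 1 at its first base with Ifi214 as the reference. The Ifi209 window held 0 matches to these letters, while it was the PYHIN gene with the largest called change, and Ifi214 with a match had almost no counts. A match or its absence in this window describes letters only.

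Stat2 and 4 of the most abundant effector genes are shown next because they are the remaining genes of that kind whose window held the motif. Stat2 is chr10:128270251-128270311, plus strand. Bst2 is chr8:71537562-71537628, minus strand. Igtp is chr11:58199496-58199555, plus strand. Adar is chr3:89730468-89730503, plus strand. Samd9l is chr6:3399522-3399543, minus strand.
Stat2: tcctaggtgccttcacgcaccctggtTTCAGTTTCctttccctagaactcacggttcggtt
Bst2: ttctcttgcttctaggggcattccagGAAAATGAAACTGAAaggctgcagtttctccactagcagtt
Igtp: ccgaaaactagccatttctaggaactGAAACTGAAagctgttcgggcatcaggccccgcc
Adar: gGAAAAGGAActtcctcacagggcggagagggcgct
Samd9l: atcgaaactgGAAACTGAAgca
Promoter windows of 250 bases before to 50 after a start were matched by symbol for 36 of the 50 genes. Among the genes with no matched window were Ly6e and Parp14, which were called, and the abundant genes Ifi27 and Zbp1. The motif was present in 26 of these 36 (72.2%), against 2638 of 27025 genes with a window (9.76%). A second motif, TTCNNNGAA of the gamma-activated site, was present in 9 of the 36 (25%) and in 9.55% of all genes, and 1 of the 42 matches to the first motif overlapped it. Most matches were close to the start, with 32 of 42 within 150 bases before it. Among tested effector genes with a window, the 23 with the first motif had a median log2 fold change of 0.16 with 3 called higher. The 10 without it had a median of -0.24 with 1 called higher. Ly6e and Parp14 are in neither group. These medians are a description and the difference between them was not tested.

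The PARP and DTX3L genes lie next to each other on chromosome 16. Parp14, a mono-ADP-ribosyltransferase that acts in STAT6 and interferon signalling, had 66.1 and 49.7 CPM in WT and 35.9 and 44.9 CPM in KO. It was the only effector gene called lower, from 57.9 ± 11.5 to 40.4 ± 6.39 CPM, or -0.52 on the log2 scale (SE 0.15, adjusted p = 0.0416). The groups did not overlap, but WT replicate 2 and KO replicate 2 were close. The call was lost without WT replicate 1, where the log2 fold change was -0.30 (adjusted p = 0.332), and without KO replicate 1, at -0.36 (adjusted p = 0.151). Dtx3l encodes the E3 ligase that works as a pair with PARP9, and it had 75.2 and 68.1 CPM in WT and 84.0 and 78.4 CPM in KO. Both KO libraries were above both WT libraries for Dtx3l (log2 fold change 0.18, SE 0.10, adjusted p = 0.276) and for Parp9 (0.24, adjusted p = 0.34), and neither was called. Parp14 lies at 35832874 to 35871544 on the minus strand, 55.0 kb from Dtx3l. Parp9 and Dtx3l overlap at their starts on opposite strands, with 8.0% of the Dtx3l exon bases and 9.4% of those of Parp9 in the overlap. Reads from the shared part cannot be told apart without a stated strand setting.

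**Figure D4:**
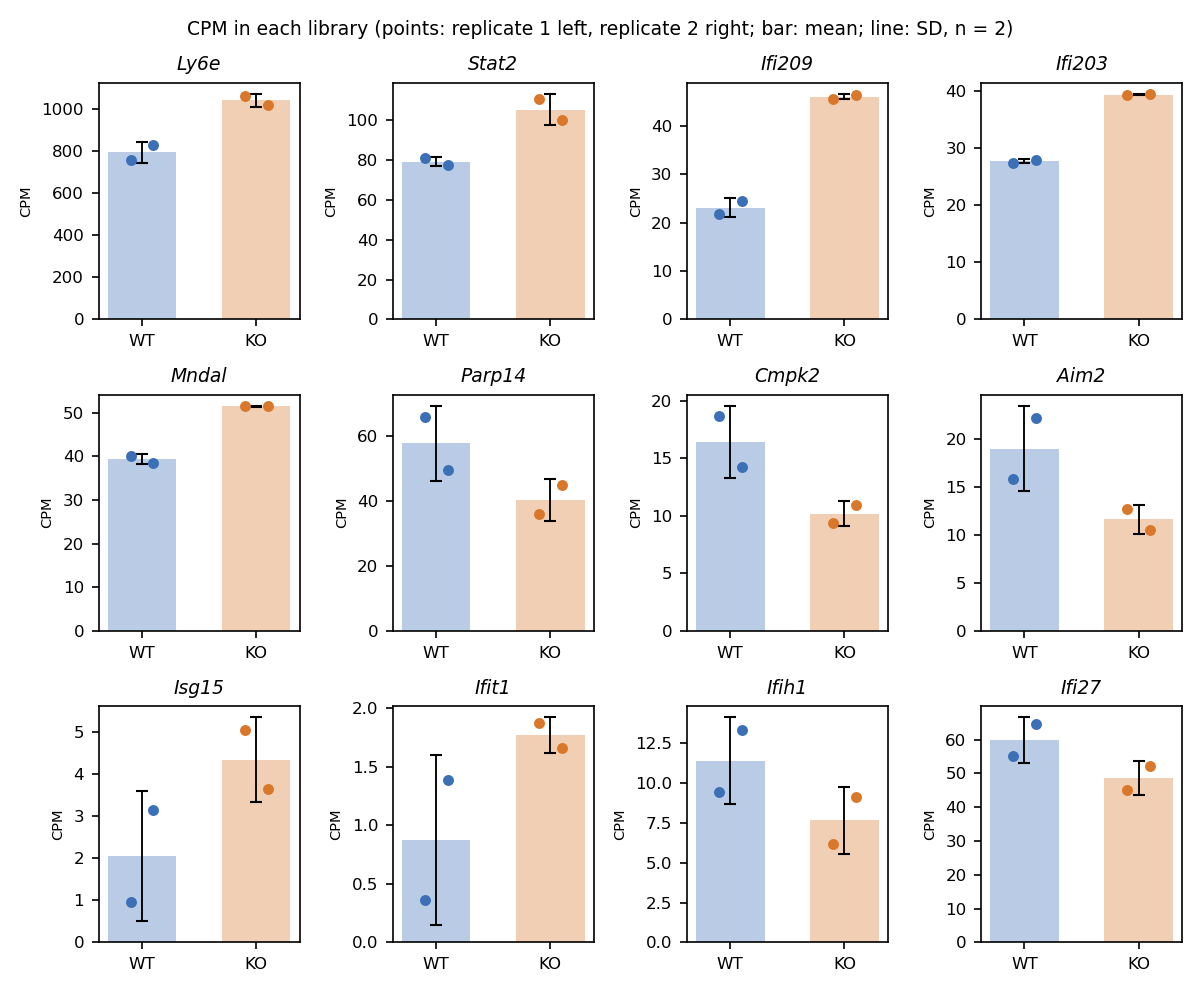
CPM in each library for 12 effector genes, with points for replicates 1 and 2, bars for the group mean and lines for the SD (n = 2). The top row and Mndal are the 5 genes called higher in KO, Parp14 is the gene called lower, and the others were not called. In Ifit1 the WT replicates lie further apart than the group means.

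The direct antiviral effectors had 0 of 7 genes called by edgeR, and 1 of the 7, Cmpk2, passed an unadjusted p of 0.05. Bst2 (tetherin), which holds budding virus particles at the cell surface, had 33.4 and 20.6 CPM in WT and 27.5 and 25.3 CPM in KO. The KO libraries lay between the WT libraries (log2 fold change -0.03, SE 0.21), and the sign of that value was not stable between settings. Cmpk2, a mitochondrial nucleotide kinase, had 18.7 and 14.2 CPM in WT and 9.43 and 11.0 CPM in KO. KO was lower in both libraries (log2 fold change -0.69, SE 0.23), with an adjusted p of 0.0641. The log2 fold change of Cmpk2 was -0.86 (adjusted p = 0.0256) without WT replicate 2, -0.48 (adjusted p = 0.368) without WT replicate 1 and -0.58 (adjusted p = 0.217) without KO replicate 1. Its neighbour Rsad2 (viperin), 12.8 kb away on chromosome 12 and on the opposite strand, had a positive estimate of 0.45 (SE 0.41) on 105 to 228 counts and overlapping groups. Rtp4 (0.34), Isg20 (-0.20), Mx1 (0.68) and Mx2 (-0.38), given as log2 fold changes, were not called. Mx1 had 12 to 45 counts. Mx2 is annotated as a polymorphic pseudogene in the deposited table.

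Among the RNA sensors, Ifih1 (MDA5) had 9.46 and 13.3 CPM in WT and 6.15 and 9.14 CPM in KO. The KO libraries lay below the WT libraries, the nearest pair by a small margin, and the difference of -0.57 on the log2 scale was not called (SE 0.29, adjusted p = 0.222). Leaving out 1 library moved it from -0.30 without WT replicate 2 to -0.88 without KO replicate 2. Ddx58 (RIG-I) and Dhx58 (LGP2), the other RNA helicases of this class, had log2 fold changes of 0.0028 and -0.10. Adar, which edits adenosine to inosine in double-stranded RNA and so keeps MDA5 from sensing self RNA, had 89.2 and 100.1 CPM in WT and 88.0 and 109 CPM in KO. The groups overlapped (log2 fold change 0.06, SE 0.11), and 16.8% of the Adar exon bases are shared with Chrnb2 on the opposite strand. Zbp1, a sensor of Z-form nucleic acid, had 28.7 and 19.0 CPM in WT and 30.2 and 27.2 CPM in KO, with overlapping groups (0.26, SE 0.20, and 0.0029 without WT replicate 2 or 0.59 without WT replicate 1). Eif2ak2 (PKR), the kinase that stops translation on double-stranded RNA, gave 0.25 on the log2 scale and was not called.

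The oligoadenylate synthetases make the second messenger that activates RNase L, and the IFIT proteins bind viral RNA ends. None of the 5 synthetase genes was called by edgeR, with 0 at an unadjusted p under 0.05. Their log2 fold changes ran from -0.85 in Oasl1 and -0.72 in Oasl2 through 0.09 in Oas1a and 0.32 in Oas3 to 0.37 in Oas2, and in all 5 the groups overlapped. Ifit1 had 0.364 and 1.39 CPM in WT and 1.88 and 1.66 CPM in KO. The KO libraries were both higher, but on 13 to 70 counts the log2 fold change of 1.01 had an SE of 0.75 (adjusted p = 0.447), and it was 0.35 without WT replicate 1 and 2.28 without WT replicate 2. Ifit2 (0.25) and Ifit3 (0.36) also had positive log2 fold changes with overlapping groups. Sequence sharing limits 2 of these genes, since 57.6% of the 50-base stretches of Oas1a also occur in Oas1g and 51.2% of those of Ifit3 occur in Ifit3b.

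The interferon-inducible GTPases, which act on the vacuoles of intracellular pathogens, had 0 of 5 genes called, and 0 at an unadjusted p under 0.05. Igtp had 50.7 and 55.6 CPM in WT and 56.6 and 60.2 CPM in KO. The KO libraries were both above, by less than the replicate gap in WT for the nearest pair (0.13 on the log2 scale, SE 0.11, adjusted p = 0.491). The log2 fold change was 0.33 for Gbp7, 0.16 for Gbp2, -0.24 for Gbp3 and -0.25 for Irgm1. Of the other inducible genes, Ifi27 is the second most abundant effector gene and encodes a small mitochondrial membrane protein. It had 55.1 and 64.6 CPM in WT and 45.0 and 52.1 CPM in KO. In KO both values were lower (log2 fold change -0.30, SE 0.12, adjusted p = 0.129), and the value was -0.41 (adjusted p = 0.0389) without KO replicate 2, -0.18 (adjusted p = 0.592) without WT replicate 2 and -0.19 (adjusted p = 0.444) without KO replicate 1. Samd9l, a restrictor of poxvirus growth and of cell proliferation, had 64.8 and 51.6 CPM in WT and 60.3 and 66.7 CPM in KO, with overlapping groups (0.13, SE 0.12). Ifi35 was the most even, with 20.4 and 21.3 CPM in WT and 20.1 and 21.8 CPM in KO, for an estimate of 0.01 on the log2 scale (SE 0.17). Xaf1 (-0.28) and Tor3a (0.04) were not called. Ifi44 had 14 and 1 counts in WT and 0 in both KO libraries, too few to test.

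The 2 WT libraries were compared gene by gene. In 25 of the 46 tested genes (54.3%) they differed by more than KO differed from WT, which held for 41.6% of all tested genes. Below 1 RPKM it held for 12 of 14 genes. The measures are unlike, since the gap is between single libraries and the fold change is between groups of 2 libraries. The gap therefore varies more, and these shares do not show whether replicate spread exceeds the genotype difference. WT replicate 2 was far above WT replicate 1 in several genes, by 1.90 on the log2 scale in Ifit1, 1.71 in Isg15, 1.68 in Oasl2 and 1.34 in Mx1. It was below in others, with a log2 ratio of -1.28 in Oas2, -1.19 in Ly6a and -0.70 in Bst2. Over the whole set WT replicate 2 was the higher of the pair in 26 of 46 genes and KO replicate 2 in 28 of 46, so neither pair showed 1 library high throughout.

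**Figure D5:**
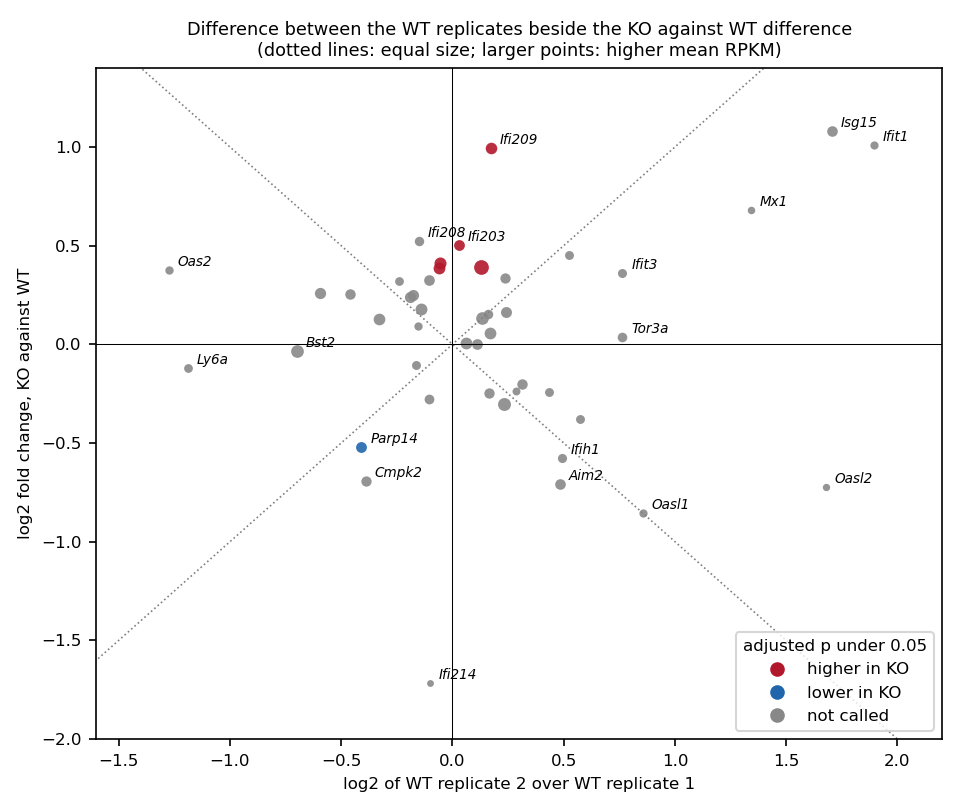
Log2 ratio of WT replicate 2 over WT replicate 1 (horizontal axis) beside the log2 fold change of KO against WT (vertical axis) for the 46 tested effector genes. Point size grows with mean RPKM, and dotted lines mark equal size of both differences. Ifi209 lies near the vertical axis with 0.99, whereas Isg15, Ifit1, Mx1 and Oasl2 have a larger gap between the WT replicates than between the groups.

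Genes upstream of the effector genes were read from 5 lists. Over all tested genes 6.63% were called higher and 7.89% lower, and the counts from these short lists are a description. No transcript of 17 of 20 interferon genes was counted in any library, which allows a level of up to 0.0806 to 0.084 CPM (3 counts, counting error only). The others were Ifng with 4 and 9 counts in WT and 0 in both KO libraries, Ifna16 with 4 counts in WT replicate 2 alone, and Ifnk with 46 counts in WT replicate 2 and 8 in KO replicate 1. The ceiling for the 17 genes covers only reads that could be assigned to a single gene. Sequence shared among the interferon genes was not measured, and how reads with several matches were counted is not given. Of 8 tested receptor and JAK genes, 1 was lower in KO and 0 higher. That gene was Ifngr2, the signalling chain of the interferon gamma receptor, with 134.6 and 163 CPM in WT and 71.1 and 66.6 CPM in KO, a change of -1.11 on the log2 scale (SE 0.10, adjusted p = 2.76e-05). The chains of the type I receptor, Ifnar1 (-0.12, adjusted p = 0.391) and Ifnar2 (-0.21, adjusted p = 0.364), and the ligand-binding chain Ifngr1 (-0.11, adjusted p = 0.553) were not called. Without KO replicate 1, Ifngr1 passed the test at -0.29 (adjusted p = 0.019), and 2 genes of the list were then lower.

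Of 11 tested genes on a list of STAT, IRF and other transcription factors, 1 was higher and 3 were lower. Irf3, which is activated by nucleic acid sensing, rose (log2 fold change 0.41, SE 0.08). Irf1 fell by 0.77 on the log2 scale, Irf4 by 0.93, and Prdm1 (Blimp-1), a repressor that belongs to neither family, by 1.97. Irf9, whose product binds DNA together with STAT2, did not pass the test at -0.12 (adjusted p = 0.676), and neither did Irf7 at -0.42 (adjusted p = 0.274). Irf9 depended on the library, with -0.37 (adjusted p = 0.0496) without KO replicate 2 and 0.11 without KO replicate 1. Whether the change of Stat2 differs from that of Irf9 was not tested. Irf1, Irf3, Irf7 and Irf9 each share 1.19% to 3.4% of their exon bases with another gene.

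Among 14 tested negative regulators, 2 were higher and 1 lower. Ptpn6 (SHP-1), a phosphatase of JAK and receptor signals, and Irf2bp1, a corepressor, rose by 0.42 and 0.37 on the log2 scale, whereas Socs1, the feedback inhibitor of JAKs, fell by 0.52. Of 17 tested sensing adaptors and kinases, 1 was higher and 0 were lower. Mavs, the mitochondrial adaptor of RIG-I and MDA5, had 5.32 and 7.91 CPM in WT and 21.4 and 14.6 CPM in KO (1.44 on the log2 scale, SE 0.28, adjusted p = 0.00409). The KO libraries lay well above the WT libraries, although the replicates within each group were apart. The 9 calls in these lists held when each library was left out in turn.

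Markers of other cells that a sorted double-positive fraction could hold were read beside these results, and their part in them was not tested. The counts of calls stand beside 6.63% higher and 7.89% lower over all tested genes. Of 10 double-positive markers 6 were higher and 0 lower, with a sum of 11964 to 12609 CPM in WT and 16934 to 17078 CPM in KO. Of 9 markers of mature single-positive thymocytes 1 was higher and 5 lower, with a sum of 461 to 491 CPM in WT and 363 to 400.2 CPM in KO, and 3 were lower without WT replicate 2. Dendritic cell markers summed to 31.9 to 37.3 CPM in WT and 17.7 to 21.7 CPM in KO. Of 5 tested, 2 were lower, 0 of them without WT replicate 2 and 1 without KO replicate 1, and Clec9a had 0 counts throughout. Of 7 tested macrophage markers 1 was lower (sum 142 to 143 CPM in WT, 85.4 to 92.0 CPM in KO), and of 5 tested B cell markers 2 were higher (231 to 239 CPM against 360.4 to 361 CPM), or 1 without WT replicate 2 or KO replicate 2. Of 4 tested double-negative markers 1 was lower (28.4 to 30.8 CPM against 20.7 to 22.3 CPM), and 0 without WT replicate 2. Plasmacytoid dendritic cell markers summed to 1019 to 1034 CPM in WT and 1004 to 1005 CPM in KO with 0 of 6 tested called, but Ccr9, which double-positive thymocytes also express, made up 939 to 945 CPM of the WT sum and 919.8 to 925 CPM of the KO sum, and Siglech had 0 to 31 counts. Natural killer markers summed to 19.0 to 19.3 CPM in WT and 25 to 26 CPM in KO with Ncr1 at 0. Thymic epithelium markers summed to 12.2 to 14 CPM and 10.3 to 12 CPM with Foxn1 and Krt5 at 0, and erythroid markers to 1.18 to 5.24 CPM and 0.537 to 3.08 CPM. None of the 4 genes tested in each of these last 3 lists was called.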

How the data were processed

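The authors deposited whole-number gene counts for each of 2 WT and 2 KO libraries and a table of RPKM values with gene lengths. The deposited RPKM equals the count over length and library total within a relative tolerance of 1e-06. Per the submitters' processing notes, the tools included STAR 2.6.0a and HTSeq 0.6.1 and the build GRCm38 (mm10), beside cutadapt 1.17, FastQC 0.11.5 and DESeq2 1.24.0. For the annotation release, the strand setting and reads with several matches, the choice is not given in the sources used here. The test was edgeR 4.0.16 (quasi-likelihood, R 4.3.3) with robust fit (TMM factors of 0.993 to 1.01, filterByExpr), with genotype as the only term, two-sided p-values and Benjamini-Hochberg adjustment over 16588 genes. SE is the absolute log2 fold change over the root of F. All 50 gene identifiers were matched to GENCODE M21 (GRCm38) for coordinates and shared bases.

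No library repeated another, since chi-square per degree of freedom was 16.7 between WT replicates, 19.0 between KO replicates and 58.4 to 71.4 between groups. The effector genes, the other lists and the rule for named genes were chosen with earlier results of these data known. Values per library are given for called effector genes, for the 12 highest in mean RPKM, and for those with an absolute log2 fold change of at least 0.5 whose groups do not overlap. Of the other lists, called genes and the main receptor chains and factors are named. A gene that this rule names is not reported here. Alternatives were other scalings and filters, DESeq2 1.42.0, limma 3.58.1 with voom or on log2 of RPKM plus 0.5 or 0.1, a replicate block, and leaving out each library. They were run on the genes and counts of the other lists as well, which was added after the data were seen. The count test was tried on simulated data. Figures were drawn with matplotlib 3.10.9.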

Additional observations from a re-analysis of the deposited data

How the results depend on the processing

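Counts of 5 effector genes higher and 1 lower were unchanged with the 3 other scalings. Both low-count filters and the replicate block gave 3 lower, and limma-voom gave 2 lower, Aim2 and in the first cases Cmpk2 being added to Parp14. DESeq2 gave 4 higher, without Mndal (adjusted p = 0.0504). On log2 of RPKM over genes with a mean of at least 1, limma called 2 higher (Ifi209 and Ly6e) and 0 lower, with 483 and 621 calls over all genes at a pseudocount of 0.5 and 477 and 615 at 0.1. Without that filter it called 0 and 0 effector genes and 0 and 0 of all genes (7 and 4289 had an unadjusted p under 0.05), the median log2 fold change of the effector genes was 0.0695, and Srsf1 had -1.34 (adjusted p = 0.0731). The calls of Irf2bp1, Irf4, Mavs, Prdm1 and Socs1 were also lost with the filter and 0.5 added, and those of all 9 called upstream genes without it. Leaving out 1 library gave 3 to 4 effector genes higher, 1 to 2 lower, a median of 0.035 to 0.137, and 949 to 1213 genes higher and 1031 to 1484 lower overall.

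Some log2 fold changes near 0 changed sign. Bst2 was 0.0139 with voom, 0.00648 on log2 of RPKM plus 0.5 with and without the filter, 0.0071 with 0.1 added and 0.00705 with the replicate block. Leaving out 1 library moved Bst2 from -0.33 to 0.36, Adar from -0.099 to 0.21, Ifi35 from -0.0467 to 0.0724, Samd9l from -0.0214 to 0.30, Ifngr1 from -0.29 to 0.061 and Irf9 from -0.37 to 0.11. The sign turned in Bst2, Adar and Ifi35 without WT replicate 1 or KO replicate 2, in Samd9l without WT replicate 2, in Ifngr1 without KO replicate 2 and in Irf9 without KO replicate 1. The cause was not tested.

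Same-numbered libraries did not deviate together (r = -0.0411 across 16588 genes), so the numbers are not taken as pairs. Under the replicate block 1304 genes were higher and 1505 lower. With 2 libraries per group and 18 effector genes below 1 RPKM, depth and replicate number limit what the low genes can show.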
